A study of Rattus norvegicus with 10 samples.

Results

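Amino acid transport and polyamine genes were followed across 10 lacrimal glands of the rat. These glands make the watery layer of tears. The set held 7 genes, Slc7a5, Slc3a2, Odc1, Oaz1, Oaz3, Amd1 and Asns, and all 9 of their probe sets among the 8740 of the array, found by the platform's gene symbols. The set was chosen by function around Slc7a5 and Oaz3, and these genes were selected on their lower intensity after denervation, in denervated against control and against contralateral glands. Their values in those contrasts are therefore given as a description, with no test.

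Each gland was hybridised to 1 array. The 5 denervated glands were taken 7 days after the greater superficial petrosal nerve, which carries the gland's parasympathetic supply, had been cut. The 5 control glands were 3 contralateral glands taken 7 days after nerve section, 1 gland of an unoperated animal and 1 gland taken 7 days after a sham operation. By title these 3 glands are contralateral, but their descriptions name the operated side; the titles were followed. The labels state no strain, sex or age, nor whether glands of a group came from separate animals or whether a contralateral and a denervated gland came from the same one. The p-values therefore set a difference between classes against the spread among these glands alone. That spread may be partly technical and may not stand for variation between animals.

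Cells take up leucine and other large neutral amino acids through LAT1, encoded by Slc7a5, which reaches the cell surface only as a pair with the heavy chain CD98, encoded by Slc3a2. Polyamines, small cations needed for growth and translation, are made from ornithine by ornithine decarboxylase (Odc1), with aminopropyl groups supplied through the decarboxylase encoded by Amd1. The antizyme encoded by Oaz1 binds ornithine decarboxylase, sends it to the proteasome and limits polyamine uptake. Its relative Oaz3 is the antizyme known from developing sperm. Asns makes asparagine and is a standard target of the response to amino acid shortage. Secretory glands, which make large amounts of exported protein, depend on amino acid supply.

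All 7 genes had RefSeq start sites in the GRCr8 assembly, 8 sites in all because Slc3a2 has 2. The 250 bases upstream of the start are shown for Slc7a5 and Oaz3, the genes the set was built around, and for Oaz1 and Odc1, the more widely expressed antizyme and its target. They lie at chr19:66872413-66872662 (minus strand) for Slc7a5, chr2:184765177-184765426 (minus strand) for Oaz3, chr7:9536991-9537240 (minus strand) for Oaz1 and chr6:46058415-46058664 (plus strand) for Odc1, and capitals mark the E-box CACGTG.
Slc7a5: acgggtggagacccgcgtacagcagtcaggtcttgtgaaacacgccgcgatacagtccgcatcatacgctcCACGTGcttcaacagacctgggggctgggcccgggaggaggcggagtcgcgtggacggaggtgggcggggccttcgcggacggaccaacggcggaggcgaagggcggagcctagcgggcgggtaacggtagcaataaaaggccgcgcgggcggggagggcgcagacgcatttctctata
Oaz3: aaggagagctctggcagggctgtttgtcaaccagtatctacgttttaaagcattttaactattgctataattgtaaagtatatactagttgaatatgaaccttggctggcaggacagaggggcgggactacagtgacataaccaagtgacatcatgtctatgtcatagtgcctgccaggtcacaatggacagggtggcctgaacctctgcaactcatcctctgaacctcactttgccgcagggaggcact
Oaz1: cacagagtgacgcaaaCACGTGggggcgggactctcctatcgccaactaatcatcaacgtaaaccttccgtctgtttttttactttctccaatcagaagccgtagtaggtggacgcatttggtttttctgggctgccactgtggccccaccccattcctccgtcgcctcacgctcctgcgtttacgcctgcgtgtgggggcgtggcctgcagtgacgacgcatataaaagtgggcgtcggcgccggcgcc
Odc1: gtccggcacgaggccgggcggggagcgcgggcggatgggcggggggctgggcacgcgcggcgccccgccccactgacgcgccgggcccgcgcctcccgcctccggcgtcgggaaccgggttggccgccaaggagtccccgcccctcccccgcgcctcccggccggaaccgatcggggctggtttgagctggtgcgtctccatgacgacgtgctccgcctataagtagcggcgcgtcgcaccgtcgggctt

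The E-box, bound by Myc-type factors and identical on both strands, was present in 2 of the 8 windows, with its first base at -179 from the start of Slc7a5 and at -234 from that of Oaz1. It occurs in 5.59% of the 33469 upstream windows of this length in the table. The core of the amino acid response element, TGATGNAA, searched on both strands, was in 0 of the 8 windows and in 3.40% of all windows. No match says only that these letters are not in this window. G and C made up 46.8% of the Oaz3 window, against 58% for Oaz1, 66.8% for Slc7a5 and 78.0% for Odc1.

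Markers of the gland's acinar cells were present: Aqp5, the water channel, ran from 6258 to 18937 intensity units over the 10 glands and Dmbt1, a secreted mucosal protein, from 14496 to 120070, while the secretoglobin Scgb2a1 was at or below the floor in 5 glands. The floor is an intensity of 156.2, the 20th percentile of all deposited values. Lower values were set to it, so that it is 7.29 on the log2 scale. The median intensity of an array was 554 to 981. Contralateral 1 and sham stood apart, with log2 ratios of the 3' to the 5' GAPDH control probe set of -0.58 and -0.64. Denervated 1 was next with -0.18, nearer to the 0.01 to 0.35 of the others. Contralateral 1, sham and denervated 1 did not stand apart by the same ratio of beta-actin, which was 0.91, 0.61 and 0.95 against 0.19 to 1.14. Denervated 2 and 5 also stood apart. Their summed intensity of 3 blood cell markers was 357275 and 371817, against 27805 to 177333 elsewhere. On 9 fibroblast markers only denervated 5 was far off, with 616659. Denervated 2 had 254330, close to the top of the 104902 to 233060 elsewhere. In whole glands, fewer cells of a type and less RNA per cell cannot be told apart.

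The first comparison set the 5 denervated against the 5 control glands. The amino acid transporter chains were lower in denervated glands, Slc7a5 by most, and so were Oaz3 and 1 of 2 probe sets of Odc1. Oaz1 was level, and Amd1, Asns and the other Odc1 probe set overlapped widely between the classes. No member passed the threshold, a limma adjusted p under 0.05 over 6118 tested probe sets, and neither did any other probe set (0%).

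Slc7a5 had intensities of 48051, 34041 and 37171 in contralateral glands, 14660 in the unoperated gland and 27441 in the sham gland. In denervated glands 1 to 5 it had 18219, 3068, 16453, 8659 and 2365. Denervated 2 and 5 were the lowest of all 10 glands, and the unoperated gland lay below denervated 1 and 3, so that the classes overlapped. On the log2 scale the denervated mean was 12.81 ± 1.36 (SD, n = 5), against a control mean of 14.87 ± 0.65 (SD, n = 5). The difference of -2.07 ± 0.53 (SE) corresponds to a 4.19-fold lower mean. It was -1.13 without denervated 2 and 5, a choice made after seeing the data, and -2.41 without denervated 1.

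The fibroblast and blood cell markers have their highest sums in denervated 2 and 5, the same glands in which Slc7a5 is lowest. For fibroblast markers denervated 2 was only a little above the next gland. Myoepithelial and smooth muscle markers also had their highest sums there, 91293 in denervated 2 and 63050 in denervated 5, against 10655 to 32170 elsewhere. Over the classes, 8 of 9 fibroblast markers were higher in denervated glands, where 55.4% of all tested probe sets were lower. The fibroblast sums were 138734 to 616659 against 104902 to 195418 in controls. The 3 blood cell markers were all higher in the mean, with sums of 46280 to 371817 against 27805 to 177333. The medians of these sums were nearly equal, 61764 in denervated and 62579 in control glands. Of myoepithelial and smooth muscle markers 7 of 7 were higher, with sums of 14632 to 91293 against 10655 to 32170. Macrophage markers were higher for 6 of 7 tested genes, with sums of 50185 to 79503 against 35702 to 58319. T and other lymphocyte markers were higher for 4 of 10, with 12639 to 21106 against 7310 to 22058. Acinar markers were higher for 4 of 9, with 328120 to 1699143 against 317173 to 1552025. Single acinar markers differed by -2.50 (Scgb2a1) to 1.53 (Dmbt1). The acinar sum, highest in denervated 5, leans on its brightest marker Pip, which alone ran from 104315 to 1474252. Endothelial markers were higher for 0 of 3, skeletal muscle markers for 4 of 6, and nerve and Schwann cell markers for 2 of 3 tested genes. No marker of these lists was at the floor in all 10 glands. The part of these cells in the Slc7a5 values was not tested.

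Slc3a2, the heavy chain that pairs with LAT1, has 2 probe sets. AB015433_s_at had 26188, 21023 and 32345 in contralateral glands, 9397 in the unoperated and 36173 in the sham gland. In denervated glands 1 to 5 it had 22390, 16247, 19133, 9532 and 9801. The unoperated gland was the lowest of the 10, and the classes overlapped. The log2 difference was -0.64 ± 0.36 (SE; limma adjusted p = 0.588).

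The other Slc3a2 probe set, X89225cds_s_at, had 11609, 21201 and 19950 in contralateral, 11054 in unoperated and 33312 in sham glands, against 10639, 10818, 14456, 10335 and 9879 in denervated glands 1 to 5. Every denervated gland except denervated 3 was below every control, and the sham gland was the highest on both probe sets. The log2 difference was -0.68 ± 0.29 (SE; limma adjusted p = 0.463). The mean was 1.56-fold lower on the former and 1.6-fold lower on the latter probe set, and neither difference passed the test. Without denervated 2 and 5 the differences were -0.51 and -0.61.

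Odc1, the first enzyme of polyamine synthesis, gave different pictures on its 2 probe sets. J04791_s_at had 3463, 3334 and 4440 in contralateral, 2144 in unoperated and 5620 in sham glands, against 2947, 1109, 1668, 1597 and 1581 in denervated glands. Of the denervated glands, denervated 1 alone lay above the lowest control, the unoperated gland. The means were 10.72 ± 0.51 and 11.82 ± 0.52 (log2, SD, n = 5 each), a difference of -1.10 ± 0.33 (SE), 2.14-fold lower (limma adjusted p = 0.435). Without denervated 1 it was -1.30 (adjusted p = 0.0646), and without denervated 2 and 5 it was -0.86. In the fit without denervated 1, this probe set was not among the 70 of the array that passed.

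J04792_at, the other Odc1 probe set, had 420, 5748 and 5669 in contralateral, 3672 in unoperated and 7205 in sham glands, against 6654, 3974, 3267, 7612 and 2816 in denervated glands. Contralateral 1 was far below all others, and the remaining 9 glands overlapped. The log2 difference was 0.47 ± 0.64 (SE; limma adjusted p = 0.828), and -0.27 without contralateral 1. Across the 10 glands the log2 values of the 2 Odc1 probe sets had a Pearson r of 0.02 and a Spearman rho of 0.21, so they did not follow one another. Which of them better tracks the transcript was not tested.

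**Figure D1:**
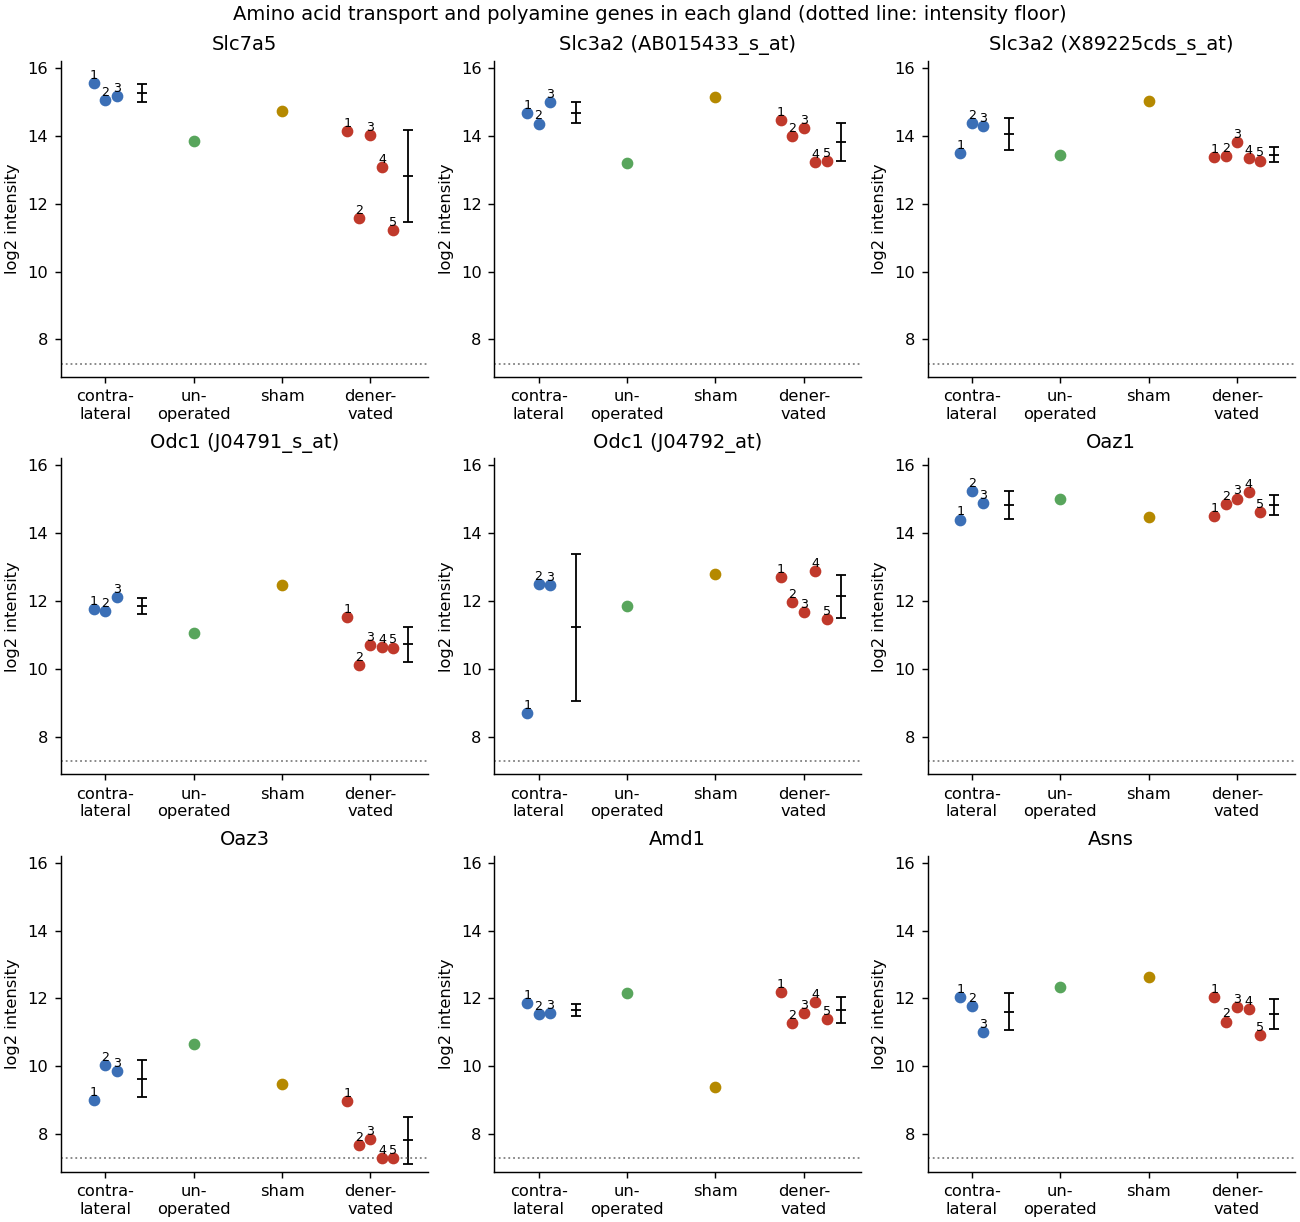
Log2 intensity (y axis) of the 9 probe sets in each of the 10 glands, by group (x axis). Points are glands with their label numbers, bars are mean ± SD for groups with 3 or more glands, and the dotted line is the floor. Slc7a5 is lowest in denervated 2 and 5, Oaz3 lies at the floor in denervated 4 and 5, and Oaz1 has nearly the same level in all glands.

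Oaz1, the general antizyme, was the steadiest member. It ran from 21657 to 38519 in control glands and from 23110 to 38196 in denervated glands. The log2 difference was 0.04 ± 0.23 (SE), with a 95% interval of -0.45 to 0.53 (limma adjusted p = 0.958). The ranges were nearly the same, and the interval still leaves room for a change as large as its bounds.

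Oaz3, the sperm antizyme, was dim. It had 519, 1058 and 920 in contralateral, 1608 in unoperated and 717 in sham glands, against 505, 205, 234, 137 and 150 in denervated glands. All 5 denervated glands lay below all 5 controls, by a narrow gap between denervated 1 and contralateral 1, and denervated 4 and 5 were below the floor. Such groups without overlap, with denervated glands below, occurred in 1.03% of tested probe sets, and Oaz3 was chosen for this contrast. The log2 difference of -1.99 ± 0.52 (SE), 3.97-fold lower, understates the gap where values are at the floor. It was -1.76 without denervated 2 and 5 and -2.28 without denervated 1.

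Oaz3 transcripts are known from haploid germ cells, so markers of those cells were examined on the same arrays. Of 8 on the array, 2 passed the filter on dim probe sets. Of the 2 tested, Acr, a sperm protease, differed by -0.23 between denervated and control glands and Prm2, a protamine, by 0.05. Acr had 375 to 2567 over the 10 glands and was never at the floor, and Prm2 reached 1056 and was at the floor in 1. Tnp2, a nuclear protein of spermatids, was at the floor in 9 of 10 glands, the most of the 8 markers. The others that did not pass the filter were at the floor in 4 to 7. The summed intensity of the 8 markers was 1261 to 3896 in denervated and 2163 to 3825 in control glands. The gene name of the Oaz3 probe set comes from the platform annotation, and what the probe set detects in this gland was not tested.

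Amd1, which supplies the aminopropyl donor for spermidine and spermine, had 3730, 3007 and 3022 in contralateral, 4553 in unoperated and 673 in sham glands, against 4707, 2478, 3050, 3786 and 2683 in denervated glands. The sham gland was the one low value. The log2 difference was 0.36 ± 0.45 (SE; limma adjusted p = 0.809), and -0.12 without the sham gland. Asns had 4199, 3510 and 2057 in contralateral, 5178 in unoperated and 6354 in sham glands, against 4181, 2560, 3442, 3316 and 1919 in denervated glands. The unoperated and sham glands were the highest. The log2 difference was -0.42 ± 0.33 (SE; limma adjusted p = 0.687), and the denervated range fell almost wholly within that of the contralateral glands.

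Of the 9 probe sets, 6 were lower and 3 higher in denervated glands, beside 55.4% lower among all tested probe sets, whose median difference was -0.08. Slc7a5 and Oaz3 were chosen on this contrast. Among the other 7 probe sets 2 were lower and 0 higher at an unadjusted p under 0.05, 1 each of Slc3a2 and Odc1, where 4.66% and 5.02% of all tested probe sets were. By limma 0 of the 7 passed after adjustment.

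Denervated glands were next compared with the 3 contralateral glands alone, in a fit with 3 classes of glands. Slc7a5, Oaz3 and 1 probe set of Odc1 were again low. Slc7a5 differed by -2.46 ± 0.60 (SE), 5.49-fold lower, with contralateral glands at 15.26 ± 0.26 (log2, SD, n = 3), and Oaz3 by -1.82 ± 0.60, both as a description. The J04791_s_at probe set of Odc1 differed by -1.14 ± 0.40 (limma adjusted p = 0.634). For Slc7a5, Oaz3 and this Odc1 probe set every denervated gland lay below every contralateral gland, as for 2.55% of all tested probe sets. Slc7a5 and Oaz3 were chosen on this contrast, and nothing is read from their part in that count. Of the other 7 probe sets, 1 was lower at an unadjusted p under 0.05, this one of Odc1, where 3.01% of all tested probe sets were. Slc7a5 differed by -1.52 without denervated 2 and 5.

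The other Odc1 probe set, J04792_at, was higher by 0.91 ± 0.73 (limma adjusted p = 0.822), and differed by -0.34 without contralateral 1. Slc3a2 differed from contralateral glands by -0.84 ± 0.42 (AB015433_s_at) and -0.61 ± 0.34 (X89225cds_s_at), with limma adjusted p = 0.722 and 0.744. Oaz1 differed by 0.00 ± 0.27, Amd1 by 0.01 ± 0.50 and Asns by -0.07 ± 0.34, each with a limma adjusted p of 0.983 or more. The 95% interval was -0.59 to 0.59 for Oaz1, -0.81 to 0.67 for Asns and -1.07 to 1.08 for Amd1, so for Amd1 these glands leave room for about 1 log2 unit either way. These glands are also part of the first comparison. By limma 0 members and 0% of all probe sets passed.

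The third comparison asked whether contralateral glands differed from the unoperated and sham glands, taken as 1 class. This contrast was not used to choose the members. Slc7a5 was higher in contralateral glands by 0.97 ± 0.75 (SE; limma adjusted p = 0.981), and all 3 contralateral glands lay above both others, as for 6.83% of tested probe sets. Asns was lower by -0.88 ± 0.43 (limma adjusted p = 0.967), with all 3 contralateral glands below both others, as for 15.2%. By limma 0 of the 9 member probe sets and 0% of all passed, and 0 members had an unadjusted p under 0.05, beside 3.37% lower and 1.52% higher among all. With 1 unoperated and 1 sham gland, the members' standard errors ran up to 0.91. The pair also disagreed: Amd1 was 4553 in the unoperated and 673 in the sham gland.

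**Figure D2:**
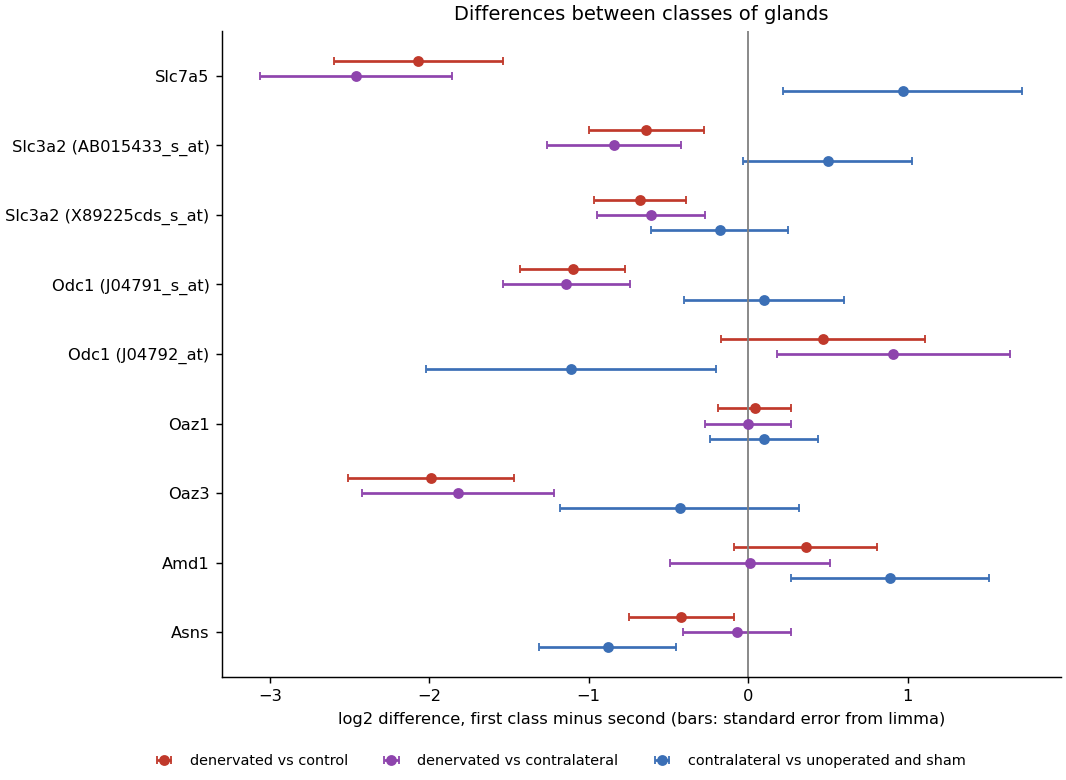
Log2 difference (x axis) of each member probe set (y axis) in 3 comparisons, first class minus second, with bars of 1 standard error from limma. Slc7a5 and Oaz3 lie near -2 in both contrasts with denervated glands, for which they were chosen, and Oaz1 lies at 0.04, 0.00 and 0.10.

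Against the unoperated and sham glands, denervated glands had lower Oaz3 by -2.25 ± 0.69 and lower Slc7a5 by -1.49 ± 0.69, given as a description. For Slc7a5 the order of the class means was contralateral (15.26), unoperated and sham (14.29) and denervated (12.81), and denervated 1 and 3 overlapped the unoperated gland. Asns differed by -0.95 ± 0.39 (limma adjusted p = 0.616), with every denervated gland below both others, as was Oaz3, and 9.10% of all tested probe sets. Of the 7 probe sets other than those of Slc7a5 and Oaz3, 2 were lower at an unadjusted p under 0.05, where 4.51% of all tested probe sets were. They were those of Asns and Odc1 (J04791_s_at, -1.04 ± 0.46, limma adjusted p = 0.616). The contralateral and denervated glands had nearly equal Asns, so for this gene the unoperated and sham glands were the high ones. By limma 0 members and 0% of all probe sets passed.

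The other genes of these pathways were examined as 5 lists, using for each gene its brightest probe set. Of amino acid transporters, 14 of 17 genes on the array passed the filter. In denervated against control glands 10 were lower and 4 higher, beside 55.4% lower among all tested probe sets. The median log2 difference, Slc7a5 and Slc3a2 included, was -0.66 beside -0.08 for all probe sets, and by limma 0 passed after adjustment. With an unadjusted p under 0.05 there were 2 lower genes, Slc7a5, chosen on this contrast, and Slc6a7, where 4.66% of all tested probe sets were lower. Slc6a7 is the proline transporter known from brain. Slc6a7 had 200 to 1521 (median 215) in denervated and 1020 to 1603 (median 1118) in control glands, a difference of -1.91 ± 0.58 (limma adjusted p = 0.435). Without denervated 1 Slc6a7 differed by -2.47 with a limma adjusted p of 0.0291. Slc6a7 was among 70 probe sets of the array that passed in that setting, and 0 passed with any other single gland left out. Probe sets with an unadjusted p under 0.05 rose there from 592 to 1105. Without denervated 2 and 5 the median of the transporter list was -0.17.

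Cationic amino acid transporters, which bring in arginine and ornithine, were lower in the mean for each of 3 genes, none past the threshold. Slc7a1 differed by -0.10 ± 0.42, Slc7a2 by -0.76 ± 0.58 and Slc7a3 by -1.32 ± 0.63, the last at the floor in 4 glands. The glutamate transporters Slc1a1, Slc1a2 and Slc1a3 differed by 0.17 ± 0.35, -0.88 ± 0.52 and -0.68 ± 0.41. The taurine transporter Slc6a6 differed by 0.73 ± 0.83. These transporters were picked as families after their values were seen, and their limma adjusted p-values were 0.522 to 0.945.

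Of polyamine metabolism genes, 10 of 11 passed the filter. Of the 10, 6 were lower and 4 higher, beside 55.4% lower among all tested probe sets, with a median of -0.10. The list counts Odc1 by J04792_at, its brighter probe set, and its 1 gene with an unadjusted p under 0.05 was Oaz3, chosen on this contrast. The antizyme inhibitor Azin1, which releases ornithine decarboxylase from antizyme, had 1909 to 3610 (median 2122) in denervated and 2628 to 4153 (median 2942) in control glands. It differed by -0.48 ± 0.27, and by -0.60 ± 0.37 on another probe set (limma adjusted p = 0.592 for the former). Oaz2, another antizyme, differed by -0.07 ± 0.30, and the arginases Arg1 and Arg2, which make ornithine, by 0.82 ± 0.59 and -0.14 ± 0.56. These 3 were picked after their values were seen and had limma adjusted p-values of 0.661 to 0.947. The list's median was 0.13 without denervated 2 and 5.

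Of genes of amino acid synthesis and the integrated stress response, 25 of 27 passed the filter. Of the 25, 15 were lower and 10 higher, beside 55.4% lower among all tested probe sets, with a median of -0.15. At an unadjusted p under 0.05, 2 of the 25 were lower and 1 higher, where 4.66% and 5.02% of all tested probe sets were, and 0 passed after adjustment by limma. Phgdh, the first enzyme of serine synthesis, had 3654 to 14255 (median 4023) in denervated and 6579 to 23082 (median 12165) in control glands, a difference of -1.11 ± 0.40 (limma adjusted p = 0.448). Its other probe sets differed by less, -0.75 ± 0.35 and -0.62 ± 0.36. Bcat2, which removes the amino group of leucine and its relatives in mitochondria, differed by -0.99 ± 0.38. Phgdh on its brightest probe set and Bcat2 had a limma adjusted p of 0.0488 without denervated 1, with differences of -1.47 and -1.34. They were among 70 probe sets of the array that passed in that setting. Without denervated 2 and 5 Bcat2 differed by -0.44. Cebpb, a transcription factor of acute phase and stress responses, differed by 1.01 ± 0.36 (limma adjusted p = 0.448; 1.00 ± 0.83 on its other probe set), with 2495 to 7730 in denervated and 1426 to 3460 in control glands. Other genes tied to amino acid shortage, picked after their values were seen, differed by 0.37 ± 0.38 (Atf3), 0.20 ± 0.69 (Trib3), -0.12 ± 0.66 (Ddit3) and -0.10 ± 0.45 (Psat1), with limma adjusted p-values of 0.765 to 0.959.

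**Figure D3:**
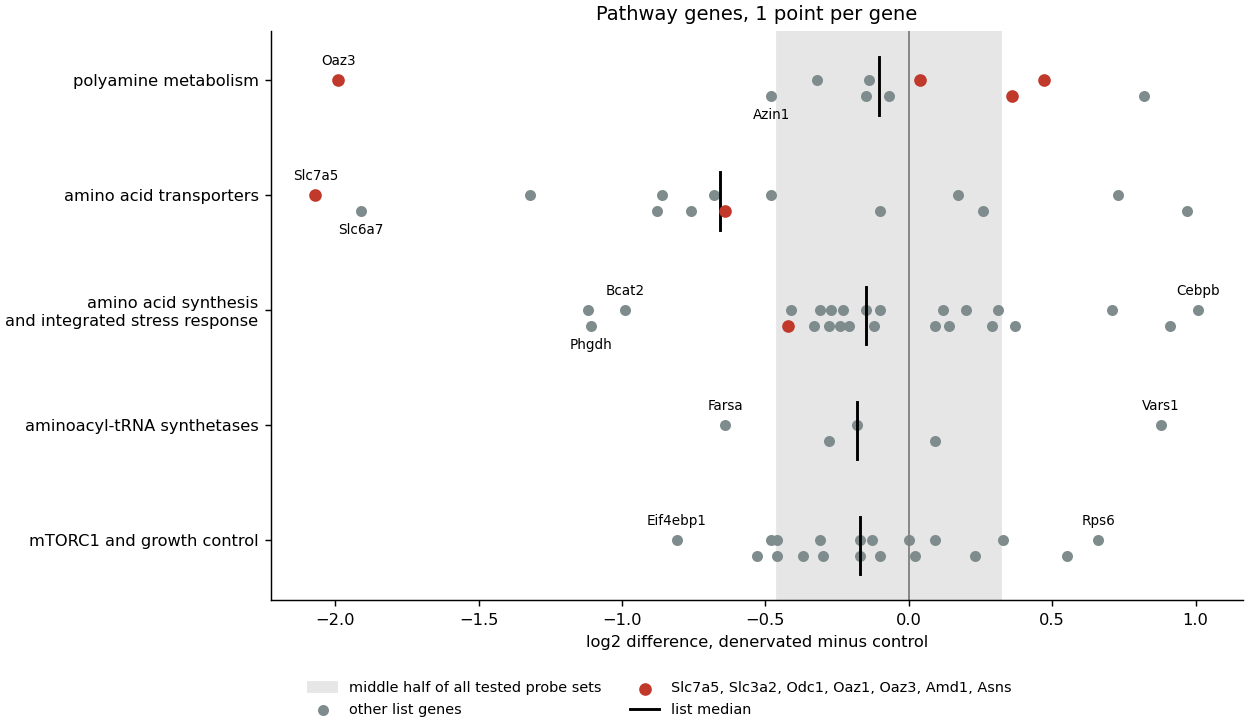
Log2 difference between denervated and control glands (x axis) for each tested gene of 5 pathway lists (y axis, 1 point per gene). Red points are the 7 genes described here, black lines are list medians and the grey band runs from the lower to the upper quartile of all tested probe sets, -0.46 to 0.32. The transporter list has its median at -0.66, left of the band, and the other 4 medians lie between -0.18 and -0.10.

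Of aminoacyl-tRNA synthetase genes, which load amino acids onto tRNA, 5 of 6 passed the filter. Of the 5, 3 were lower and 2 higher, beside 55.4% lower among all tested probe sets, with a median of -0.18. Farsa, a subunit of the phenylalanine enzyme, had 1741 to 2806 in denervated and 3022 to 3981 in control glands, a difference of -0.64 ± 0.25 (limma adjusted p = 0.451). Its classes did not overlap, as for 1.03% of all tested probe sets, and it was named for its low p. Vars1, the valine enzyme, differed by 0.88 ± 0.76. Of mTORC1 and growth control genes, the kinase pathway that senses leucine, 19 of 20 passed the filter. Of the 19, 12 were lower and 7 higher, beside the same 55.4%, with a median of -0.17. At an unadjusted p under 0.05, 1 of the 19 was lower and 1 higher, where 4.66% and 5.02% of all tested probe sets were. These 2 genes, Eif4ebp1 and Rps6, were named for their low p. Eif4ebp1, which holds back translation initiation when mTORC1 is idle, differed by -0.81 ± 0.28, with 8679 to 22035 in denervated and 21020 to 32795 in control glands. This difference ran from -0.97 to -0.38 over the alternatives, and its other probe sets differed by -0.87 and -0.67. Rps6, a ribosomal protein and end target of that pathway, differed by 0.66 ± 0.23, and by 0.44 ± 0.21 on its other probe set. For Eif4ebp1 and the former Rps6 probe set the limma adjusted p was 0.437. Picked after their values were seen, Mtor itself differed by -0.30 ± 0.33 and the growth regulator Myc by 0.55 ± 0.50. By limma 0 genes of either list passed after adjustment.

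How the members varied together was described by correlations of log2 intensity over the 10 glands. The glands share their arrays' general differences, so these are descriptions of the arrays as a whole, and no p is given. Slc7a5 had a Pearson r of 0.83 and a Spearman rho of 0.89 with Odc1 (J04791_s_at). Without denervated 2 and 5, which lie farthest from the Slc7a5 median, r was 0.78. With its partner Slc3a2 the r was 0.70 (AB015433_s_at, rho 0.78) and 0.57 (X89225cds_s_at, rho 0.72), and 0.79 and 0.49 without those glands. With Oaz3 the r was 0.71 (rho 0.64) and 0.50 without them. With Asns an r of 0.49 (rho 0.43) became -0.12, and so rested on those glands. With Oaz1, Amd1 and Odc1 (J04792_at) it was -0.08, -0.04 and -0.16 (rho -0.21, 0.10 and 0.02), and -0.47, -0.25 and -0.50 without those glands. Slc7a5 and Oaz3 were both chosen as lower in denervated glands, so a positive r between them follows in part from the choice. Every r over the 10 glands also holds any difference between the classes.

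The genes most like Slc7a5 among 5000 other named probe sets were Mydgf, Ero1b, Ccng1, Sec61b and Napa, with Pearson r of 0.974, 0.969, 0.968, 0.966 and 0.962 (Spearman rho 0.939, 0.915, 0.976, 0.976 and 0.952; n = 10 glands). Ero1b is an oxidase that serves disulfide formation in the endoplasmic reticulum, Sec61b is part of the channel through which secreted proteins enter it, and Napa acts in vesicle fusion. Mydgf is a growth factor that also resides in the secretory pathway and Ccng1 a cyclin induced by p53. Without denervated 2 and 5 the r values were 0.87 to 0.92. Their intensities varied less than those of Slc7a5, with log2 differences between denervated and control glands from -1.04 (Ero1b) to -0.57 (Sec61b). These lower values follow from the choice, since Slc7a5 was itself chosen as lower in denervated glands. Over the alternatives Ero1b ran from -1.28 to -0.48 and Sec61b from -0.71 to -0.26.

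The genes most like Oaz3 were Klk1, Cenpi, Wfdc6a, Myh3 and Slc18a2, with Pearson r of 0.952, 0.950, 0.940, 0.926 and 0.913 (Spearman rho 0.909, 0.924, 0.948, 0.90 and 0.924; n = 10 glands). Klk1 is tissue kallikrein, Cenpi a centromere protein, Myh3 an embryonic myosin heavy chain and Slc18a2 the vesicular monoamine transporter. Like Oaz3, 4 of the 5 probe sets were dim, never above 1300, and 3 were at the floor in at least 2 glands: Klk1 in 4, Cenpi in 2 and Slc18a2 in 2. Myh3, with 2833 to 5651, was the exception. The r values without denervated 4 and 5, the glands farthest from the Oaz3 median, were 0.88 to 0.93.

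**Figure D4:**
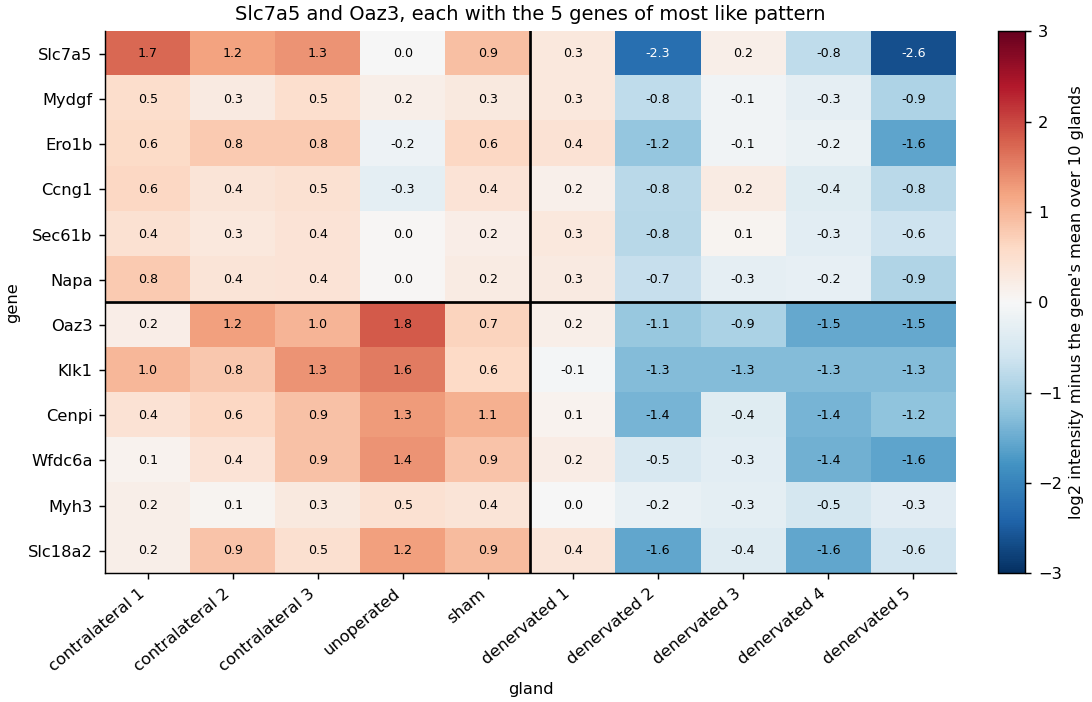
Log2 intensity minus each gene's mean over the 10 glands (colour and number) for Slc7a5 and Oaz3, each above the 5 genes of most like pattern (y axis), in each gland (x axis). The Slc7a5 rows are lowest in denervated 2 and 5, while the Oaz3 row is highest in the unoperated gland and lowest in denervated 4 and 5.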

How the data were processed

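RNA of 10 rat lacrimal glands was measured on 10 arrays. The authors deposited 1 linear intensity per gland for each of 8799 probe sets. Their trimmed means ran from 2505 to 2507, so that arrays were already scaled alike. The authors' software is not given in the sources used here.

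Without the 59 control probe sets, intensities were raised to at least the 20th percentile (156.2) and put on a log2 scale. The 6118 probe sets with a mean above the 30th percentile were tested, all 9 of the members among them, with limma 3.58.1 in R 4.3.3 (eBayes with a variance trend, two-sided, Benjamini-Hochberg over all tested probe sets). Precision is limited by the number of arrays, with a median standard error of 0.504 for denervated against control glands. Symbols came from the platform annotation: 7006 probe sets had 1, 308 several and 1426 none listed here. RefSeq (GRCr8) gave current names and upstream sequences. The steps were tested on simulated data. Figures used matplotlib 3.10.9.

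The members, pathway lists, marker lists and alternatives were chosen with earlier results of these data known. Named beside the members are, per list, up to 4 genes by unadjusted p (at least 2), the 5 genes most correlated with Slc7a5 and with Oaz3, and a few genes picked after their values were seen, as marked. Alternatives were other scalings, floors, filters and variance models, array weights, leaving out each gland, 3 arrays as a block or left out, gland numbers as a block and, added after seeing the data, leaving out denervated 2 and 5.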

Additional observations from a re-analysis of the deposited data

Results flagged for a closer look

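In 3 of 18 sets of 5 glands looked at, 1 gland stood far from the other 4. Chance alone sets about 1 in 20 such sets apart. For Odc1 (J04792_at), contralateral 1 had 420 against 3672 to 7205 in the other control glands, and its gap on the log2 scale made up 0.763 of their range. For Amd1, the sham gland had 673 against 3007 to 4553 in the other control glands (0.783 of the range). Contralateral 1 and sham also had the lowest 3' to 5' ratios of GAPDH, -0.58 and -0.64 on the log2 scale, while their beta-actin ratios, 0.91 and 0.61, lay within the 0.19 to 1.14 of the other glands. The part of this in the 2 values was not tested. For Slc3a2 (X89225cds_s_at), denervated 3 had 14456 against 9879 to 10818 in the other denervated glands (0.761 of the range).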

How the results depend on the processing

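By limma 0 probe sets passed in each of the 4 comparisons. Leaving out each gland gave 0 to 70 for denervated against control glands (70, 48 higher and 22 lower, without denervated 1), 0 against contralateral glands, 0 to 1 for contralateral against unoperated and sham glands (1 without the unoperated gland), and 0 to 5 for denervated against unoperated and sham glands (5 without denervated 1, 3 without the unoperated gland). With no filter, 7 passed for contralateral and 13 for denervated against unoperated and sham glands. Without a variance trend, and with array weights, 1 passed for denervated against contralateral glands. Without contralateral 1, sham and denervated 1, 13 passed for denervated glands against the unoperated gland alone. Where 1 gland is left in a class, here and without the unoperated or the sham gland, it is assumed to vary like the other groups. The causes were not tested. The labels do not say whether same-numbered contralateral and denervated glands share an animal. Their deviations correlated by 0.49, 0.04 and 0.16 for numbers 1 to 3, against -0.16, 0.02 and -0.02 with other numbers. With so few pairs these values cannot tell whether the glands were paired. The numbers were not used for pairing in the main fits. With the numbers as a replicate block 0 probe sets passed for denervated against control and 0 against contralateral glands, where the Oaz1 difference was -0.05 and that of Asns 0.09.

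Slc7a5, Oaz3, Odc1 (J04791_s_at) and both Slc3a2 probe sets kept their sign in denervated against control and against contralateral glands under every alternative that gave a value, Slc7a5 running from -2.41 to -1.13 and Oaz3 from -2.65 to -1.52 against control glands. Slc7a5 and Oaz3 were chosen as lower in these contrasts, so nothing is read from their kept sign. Oaz3 had no value with the filter at the 50th percentile. The differences that changed sign, some of them as large as those of Odc1 (J04792_at) and Amd1, had not passed the threshold and did not pass it with the other sign. In denervated against control glands, leaving out each gland gave -0.27 to 0.76 for Odc1 (J04792_at), -0.06 to 0.15 for Oaz1 and -0.12 to 0.57 for Amd1. Without contralateral 1, sham and denervated 1 these were -0.27, -0.11 and -0.22, and with the 3 as a block Oaz1 was -0.07. Against contralateral glands, leaving out each gland gave -0.34 to 1.55 for Odc1 (J04792_at), -0.22 to 0.20 for Oaz1, -0.37 to 0.15 for Asns and -0.13 to 0.11 for Amd1. Without the 3 arrays Odc1 (J04792_at) was -0.48, Oaz1 -0.13, Amd1 -0.03 and Asns 0.03, and with them as a block Oaz1 was -0.07, Amd1 -0.04 and Asns 0.01. Amd1 was -0.07 with quantile normalization and 0.00 with median scaling, Oaz1 -0.01 with median scaling and -0.02 with array weights, and Asns 0.02 with array weights and 0.22 without denervated 2 and 5.

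For contralateral against unoperated and sham glands, leaving out each gland gave -0.97 to 0.62 and -0.47 to 1.47 for Slc3a2 (X89225cds_s_at and AB015433_s_at), -1.74 to 0.15 and -0.60 to 0.79 for Odc1 (J04792_at and J04791_s_at), -0.17 to 0.37 for Oaz1, -1.01 to 0.15 for Oaz3 and -0.49 to 2.27 for Amd1. Without the 3 arrays Slc3a2 (X89225cds_s_at) was 0.90, Odc1 (J04792_at) 0.64 and Amd1 -0.59. Slc3a2 (X89225cds_s_at) was 0.15 with median scaling and Oaz1 -0.05 with quantile normalization. For denervated against unoperated and sham glands the ranges were -1.31 to 0.63 and -1.58 to 0.01 for Slc3a2 (AB015433_s_at and X89225cds_s_at), -0.68 to 0.29 for Odc1 (J04792_at), -0.17 to 0.37 for Oaz1 and -0.49 to 2.27 for Amd1. Without the 3 arrays these were 0.47, 0.02, 0.15, -0.08 and -0.62, and with them as a block Oaz1 was -0.06. Odc1 (J04792_at) was 0.13 with median scaling and 0.09 without denervated 2 and 5. Median scaling moved the median difference of all tested probe sets from -0.15 to 0.18 for contralateral and from -0.17 to 0.14 for denervated against unoperated and sham glands. Signal over background limits Oaz3 in denervated glands, where 2 of 5 values are at the floor.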
